A study of Mus musculus with 8 samples.

Results

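The enzymes and switch proteins that carry signals from immunoreceptors inside myeloid cells were followed in the hypothalamus of *Nestin-Pex5*-/- and wild type mice, as 9 genes chosen by name: the kinases *Syk*, *Lyn*, *Fgr* and *Btk*, the lipid enzymes *Plcg2*, *Pik3cg* and *Inpp5d*, the exchange factor *Vav1* and the GTPase *Rac2*. Of these, 8 had a probe set annotated to that gene alone and *Lyn* is not analysed here, so 8 of 18194 genes and 16 of 34958 such probe sets are described. The groups were 4 *Nestin-Pex5*-/- mice and 4 wild type mice, all 10 weeks old, and the array methods name no treatment for them. Total RNA of each hypothalamus was put on 1 Affymetrix whole-genome mouse array. *Nestin-Pex5*-/- mice, bred into a Swiss Webster background, lack the peroxisomal import receptor Pex5 where Cre was driven by the nestin promoter, that is in neural progenitors and the neurons, astrocytes and oligodendrocytes that arise from them. Microglia arise from the yolk sac and are not of this lineage. Values are log2 values made by the authors with RMA. This method subtracts background, gives the probe values of all arrays the same distribution and then combines the probes of a set into 1 value. Where a gene had several probe sets, the one brightest on average over the 8 arrays was taken as its main probe set. It was called higher or lower where limma gave a p-value under 0.05 after Benjamini-Hochberg adjustment over all 18194 genes.

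Immunoreceptors such as Fc receptors and TREM2 have no enzyme of their own. They pair with small chains that carry an immunoreceptor tyrosine-based activation motif (ITAM), which Src family kinases such as Lyn and Fgr phosphorylate, and Syk then docks on the phosphorylated motif. From there Btk and PLCγ2 lead to calcium and diacylglycerol, Vav1 loads Rac2 with GTP for actin and the NADPH oxidase, and the phosphatase SHIP1, the product of *Inpp5d*, removes the lipid that PI3-kinases make. In the brain these genes are used above all by microglia, although B cells, T cells, neutrophils and mast cells use several of them too.

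The hypothalamic origin of the tissue was borne out by bright signals of *Pmch* (12.51 and 12.64), *Avp* (11.52 and 11.52) and *Hcrt* (10.59 and 10.59) in *Nestin-Pex5*-/- and wild type mice, as means of log2 values. Of 16 measured hypothalamic markers none was called by limma, but 15 had a negative log2 fold change (median -0.20), and *Isl1* (0.636-fold) and *Crh* (0.798-fold) were lower at an unadjusted p under 0.05. Wild type replicate 4 stood apart, with 155 genes more than 2-fold from the mean of its group without it, where the *Nestin-Pex5*-/- arrays had 19 to 47 such genes and the remaining wild type arrays 18 to 63. Its choroid plexus markers averaged 6.81, where wild type replicates 1 to 3 had 8.82 to 9.23, and its value lay above the wild type mean in 8 of the 8 genes of the set. Values without it are given where they change a call.

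All 8 measured genes had a higher mean in *Nestin-Pex5*-/- than in wild type hypothalamus, and 5 were called higher: *Rac2*, *Inpp5d*, *Pik3cg*, *Btk* and *Plcg2*. Their increases ran from 1.57-fold for *Plcg2* to 3.20-fold for *Rac2*. *Fgr*, *Syk* and *Vav1* did not pass on their main probe sets. None was called lower, and none was lower at an unadjusted p under 0.05, while 8 were higher at that level. Over all genes limma called 3.98% higher and 0.791% lower after adjustment. The share of all genes at the unadjusted level is not given here, so the count of 8 has no background beside it. In 7 of the 8 genes each *Nestin-Pex5*-/- value exceeded each wild type value, a pattern found in 6.63% of all genes (4.51% had all *Nestin-Pex5*-/- arrays below), and 3 of the 8 were called at 2-fold or more, as were 1.17% of all genes. The median log2 fold change was 0.75 over the 8 genes and -0.03 over all genes. Without wild type replicate 4, or without *Nestin-Pex5*-/- replicate 7, *Fgr* passed as well and 6 genes were called. All 8 genes were dim, with a mean over the 8 arrays of at most 7.58 against a median of 7.75 over the main probe sets of all genes, and the share of background in such signals is unknown. In bulk tissue more cells of a type and more RNA per cell cannot be told apart.

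**Figure D1:**
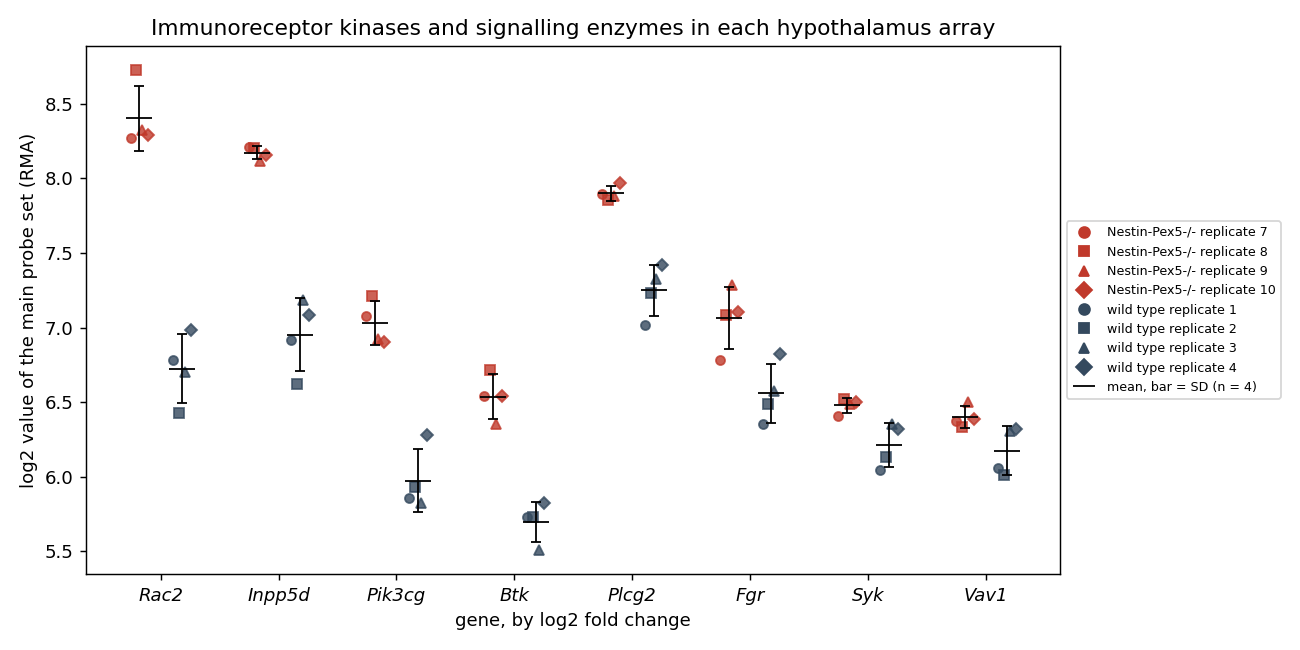
Log2 value of the main probe set (vertical axis) of the 8 genes for every mouse as 1 point, with bars for the mean and SD of the 4 mice of a genotype, *Nestin-Pex5*-/- left of wild type. The genotypes overlap only in *Fgr*, and the distance is largest for *Rac2*, with means of 8.40 and 6.72.

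The stretch before the start site was read for 7 of these genes from RefSeq (GRCm38.p6), as 9 windows of 250 bases ending at the base before an annotated start. It was searched on both strands for AGGAAGT, letters that belong to the sequence bound by PU.1, the myeloid transcription factor encoded by *Spi1*. *Spi1* itself rose 2.35-fold (adjusted p = 5.6e-04 from limma). It belongs to the microglia and macrophage markers, of which 15 of 16 measured were called higher. Whether PU.1 has a part in the changes of these genes was not tested. A match was found for 3 of the 7 genes, *Vav1*, *Inpp5d* and *Pik3cg*, in 4 of the 9 windows, against 7.69% of the 32851 windows of all genes. The 2 windows of *Pik3cg* overlap, and 1 of its matches lies in both. The shorter GAGGAA, which shares letters with it, was found for 4 of the 7 genes, in 4 of the 9 windows, and in 23.3% of all windows. The windows with the match nearest to the start site are shown, 1 per gene with a match, with AGGAAGT, or its reverse complement, in capitals. They are chr17:57278850-57279099 on the plus strand for *Vav1*, chr1:87620062-87620311 on the plus strand for *Inpp5d* and chr12:32208660-32208909 on the minus strand for *Pik3cg*.
Vav1: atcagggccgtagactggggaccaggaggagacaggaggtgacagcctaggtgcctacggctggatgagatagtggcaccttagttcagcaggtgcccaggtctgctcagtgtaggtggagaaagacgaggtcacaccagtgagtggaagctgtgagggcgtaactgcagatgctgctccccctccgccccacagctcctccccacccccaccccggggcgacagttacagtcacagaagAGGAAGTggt
Inpp5d: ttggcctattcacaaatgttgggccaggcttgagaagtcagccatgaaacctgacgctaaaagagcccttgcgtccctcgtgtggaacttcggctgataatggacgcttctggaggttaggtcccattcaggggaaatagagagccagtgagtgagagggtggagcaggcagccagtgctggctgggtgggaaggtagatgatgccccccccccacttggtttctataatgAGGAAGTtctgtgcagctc
Pik3cg: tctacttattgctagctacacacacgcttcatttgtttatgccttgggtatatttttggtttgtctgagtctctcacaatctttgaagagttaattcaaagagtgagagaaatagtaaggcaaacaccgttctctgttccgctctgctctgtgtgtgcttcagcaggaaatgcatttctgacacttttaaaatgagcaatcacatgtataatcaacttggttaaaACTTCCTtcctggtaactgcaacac
The match lies 10 to 4 bases before the start in *Vav1*, 19 to 13 in *Inpp5d* and 25 to 19, on the opposite strand, in *Pik3cg*. *Pik3cg* has a second annotated start, for which the matches lie 214 to 208 and 191 to 185 bases before it. *Btk* and *Plcg2*, which were called higher, had neither set of letters in their windows. *Vav1*, which has a match, was not called on its main probe set (1.17-fold, adjusted p = 0.209 from limma). No window was read for *Rac2*, the gene with the largest rise. A match of letters is a description of the sequence and does not show binding.

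Among the receptor-proximal kinases *Btk* rose and *Fgr* and *Syk* did not pass. *Btk*, a Tec family kinase that activates PLCγ2, was at 6.54, 6.72, 6.35 and 6.54 on the log2 scale in *Nestin-Pex5*-/- replicates 7, 8, 9 and 10, against 5.73, 5.73, 5.51 and 5.83 in wild type replicates 1, 2, 3 and 4. The lowest *Nestin-Pex5*-/- array lay 0.52 above the highest wild type array. The rise was 1.79-fold (95% confidence interval 1.55 to 2.07; 0.84 ± 0.093 on the log2 scale, standard error of the fit, as for every ± on a fold below, adjusted p = 5.0e-04 from limma). *Btk* was read by 1 probe set only.

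*Fgr*, a Src family kinase of myeloid cells, was at 6.78, 7.08, 7.28 and 7.11 in *Nestin-Pex5*-/- replicates 7 to 10, against 6.35, 6.49, 6.58 and 6.82 in wild type replicates 1 to 4. The lowest *Nestin-Pex5*-/- value, in replicate 7, fell just below the highest wild type value, in replicate 4. The fold of 1.42 (0.50 ± 0.12 on the log2 scale, standard error of the fit) had an adjusted p of 0.0513 in limma, and an exact two-sided permutation p of 0.057. Leaving out *Nestin-Pex5*-/- replicate 7 or wild type replicate 4 brought the adjusted p to 0.019 and 0.0142, while leaving out any other array gave 0.108 to 0.143. Its dimmer probe set (1442804_at) gave a log2 fold change of 0.58, with no overlap between the genotypes (adjusted p = 0.0676 from limma, over every probe set with 1 gene).

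*Syk*, the kinase that binds phosphorylated ITAMs, was at 6.41, 6.52, 6.49 and 6.50 in *Nestin-Pex5*-/- replicates 7 to 10 and at 6.05, 6.13, 6.35 and 6.32 in wild type replicates 1 to 4. The groups did not overlap, by a margin of 0.055, and the fold was 1.20 (95% confidence interval 1.07 to 1.36, adjusted p = 0.0975 from limma). Its 3 dimmer probe sets differed. Probe set 1418262_at gave 1.36-fold and was called (adjusted p = 0.0498 in the limma fit of the 34958 probe sets, of which 3.0% were called higher and 0.472% lower). Probe set 1425797_a_at gave 1.35-fold (adjusted p = 0.0516), again with no overlap, and 1457239_at showed no difference, with 4.76 to 4.93 in *Nestin-Pex5*-/- and 4.79 to 4.93 in wild type mice.

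The genes of lipid signalling all rose. *Inpp5d*, which encodes the inositol phosphatase SHIP1, a brake on PI3-kinase signals, was at 8.21, 8.20, 8.12 and 8.16 in *Nestin-Pex5*-/- replicates 7 to 10, against 6.92, 6.62, 7.19 and 7.08 in wild type replicates 1 to 4. The *Nestin-Pex5*-/- arrays lay close together (SD 0.044, n = 4) and the wild type arrays were spread more widely (SD 0.25, n = 4). The rise was 2.33-fold (1.22 ± 0.11 on the log2 scale, adjusted p = 1.2e-04 from limma). The dimmer probe set of *Inpp5d* (1424195_a_at) rose 1.54-fold, with 7.39 ± 0.044 in *Nestin-Pex5*-/- and 6.77 ± 0.057 in wild type mice (SD, n = 4 each; adjusted p = 1.6e-04 from limma).

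*Pik3cg*, the catalytic subunit of the PI3-kinase that responds to G protein-coupled receptors, was at 7.08, 7.21, 6.93 and 6.90 in *Nestin-Pex5*-/- replicates 7 to 10 and at 5.86, 5.93, 5.82 and 6.28 in wild type replicates 1 to 4. Wild type replicate 4 was the highest of its group and still 0.62 below the lowest *Nestin-Pex5*-/- array. This was a 2.08-fold rise (1.06 ± 0.11 on the log2 scale, adjusted p = 3.9e-04 from limma), and the dimmer probe set (1422708_at) rose 1.97-fold (adjusted p = 0.0198 over all probe sets), with its highest value, 6.11, in *Nestin-Pex5*-/- replicate 8.

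*Plcg2*, the phospholipase that cleaves a membrane lipid into calcium-releasing and kinase-activating messengers, was at 7.89, 7.86, 7.88 and 7.97 in *Nestin-Pex5*-/- replicates 7 to 10, against 7.02, 7.23, 7.32 and 7.42 in wild type replicates 1 to 4. The *Nestin-Pex5*-/- arrays again varied less (SD 0.049 against 0.17 in wild type, n = 4 each). The rise was 1.57-fold (0.65 ± 0.084 on the log2 scale, adjusted p = 0.00143 from limma) on the only probe set of this gene.

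*Rac2*, the Rac GTPase of blood cells, showed the largest rise of the 8 genes on its main probe set and ranked 90 among all genes by log2 fold change. It was at 8.27, 8.73, 8.33 and 8.29 in *Nestin-Pex5*-/- replicates 7 to 10, against 6.78, 6.42, 6.70 and 6.99 in wild type replicates 1 to 4. The groups were 1.28 apart at their nearest arrays, and *Nestin-Pex5*-/- replicate 8 stood above the other 3 arrays of its group. The rise was 3.20-fold (95% confidence interval 2.60 to 3.95, 1.68 ± 0.13 on the log2 scale, adjusted p = 5.1e-05 from limma) and was 1.57 on the log2 scale without replicate 8. The other probe set of *Rac2* (1440208_at) was at 4.28 ± 0.075 in *Nestin-Pex5*-/- and 4.28 ± 0.20 in wild type mice (SD, n = 4 each), with no difference called (adjusted p = 0.99).

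*Vav1*, which exchanges GDP for GTP on Rac proteins in blood cells, depended on the probe set. On the main one (1440300_at) it was at 6.38, 6.34, 6.50 and 6.38 in *Nestin-Pex5*-/- replicates 7 to 10 and at 6.06, 6.01, 6.31 and 6.32 in wild type replicates 1 to 4. The nearest arrays were 0.013 apart, and the fold of 1.17 did not pass (adjusted p = 0.209 from limma). On the dimmer one (1422932_a_at) it was at 5.72, 6.12, 6.07 and 5.95 in *Nestin-Pex5*-/- and at 4.40, 4.35, 4.29 and 4.42 in wild type arrays. This is a 3.03-fold rise (1.60 ± 0.089 on the log2 scale, adjusted p = 7.4e-06 from limma), with every *Nestin-Pex5*-/- array more than 1 log2 unit above every wild type array.

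The change of each of the 8 dimmer probe sets was set against that of its main probe set within the same arrays, a comparison chosen after the values were seen. The largest difference was -1.68 on the log2 scale for *Rac2*, followed by 1.38 for *Vav1* and -0.59 for *Inpp5d*. In these 3 the genotypes lay fully apart (exact two-sided permutation p = 0.029, the smallest that 4 mice against 4 allow, and 0.076 after adjustment over the 8 comparisons). In *Syk*, *Fgr* and *Pik3cg* they overlapped. The dimmer probe set of *Rac2* (4.28 in both genotypes) and that of *Vav1* in wild type mice (4.37) lay far below the array medians of 6.70 to 6.84. The values used here do not show whether they were above background, so the size and order of these differences are uncertain. Where on the transcript each probe set lies was not examined.

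**Figure D2:**
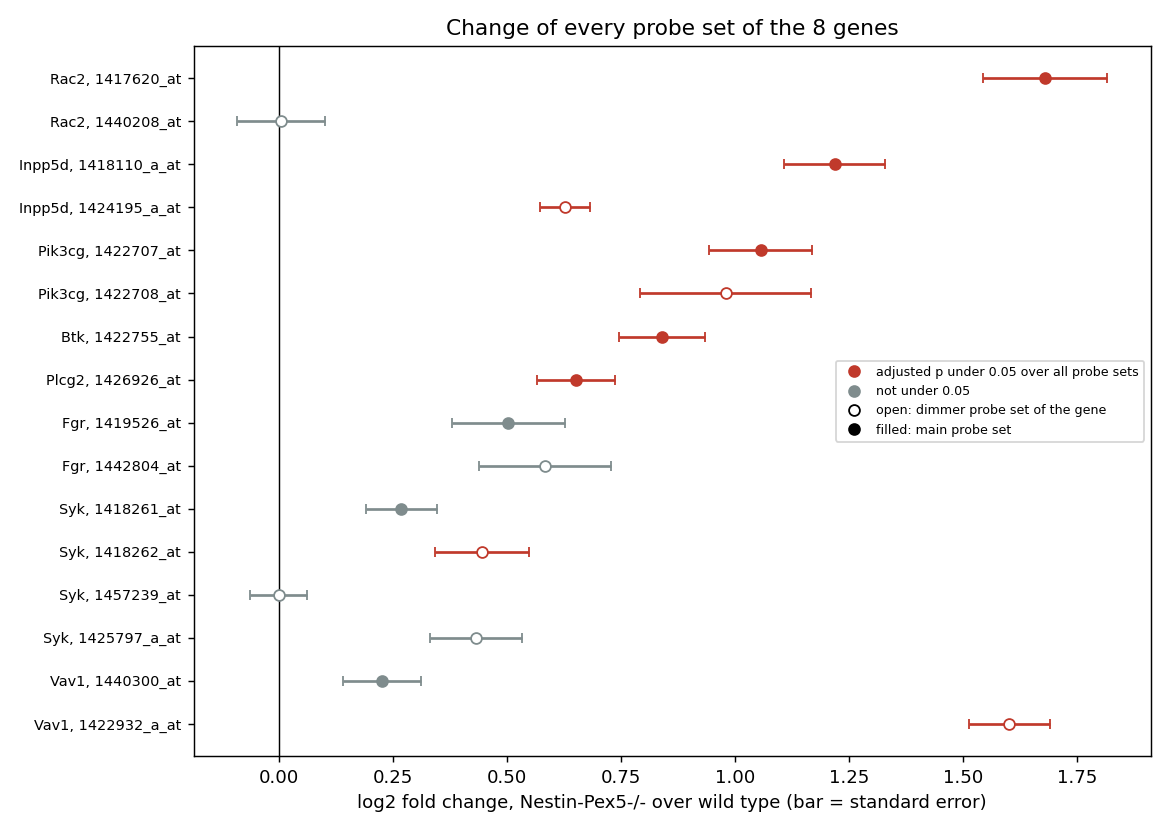
Change on the log2 scale in *Nestin-Pex5*-/- relative to wild type mice (horizontal axis, bars are standard errors of the fit, n = 4 arrays per genotype) for the 16 probe sets of the 8 genes, with main probe sets filled and those called over all probe sets in red. Of the 8 dimmer probe sets 4 were called higher, that of *Vav1* at 1.60, while those of *Rac2* and *Syk* at the zero line were not.

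Each gene was then compared with a paralogue of wider or other expression by taking the difference of the log2 values within each array, over 8 pairs. The paralogues moved less in 7 of the pairs, and in 6 of them this difference kept the genotypes fully apart (exact two-sided permutation p = 0.029 each, 0.038 after adjustment over the 8 pairs). The change of *Rac2* exceeded that of *Rac1*, the Rac GTPase of most cells, by 1.61 ± 0.22 on the log2 scale (pooled SD of the arrays, n = 4 each). *Rac1* was at 13.04 ± 0.014 in *Nestin-Pex5*-/- and 12.97 ± 0.032 in wild type mice (SD, n = 4 each; adjusted p = 0.52 from limma). *Pik3cg* exceeded *Pik3ca*, a PI3-kinase subunit used downstream of growth factor receptors, by 1.05 ± 0.21, and *Plcg2* exceeded *Plcg1*, its widely expressed relative, by 0.71 ± 0.16.

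*Inpp5d* exceeded *Inppl1*, which encodes the related phosphatase SHIP2, by 0.66 ± 0.28, although *Inppl1* was itself called higher (1.47-fold, adjusted p = 0.0129 from limma). This pair lost its call when the probe sets of a gene were averaged (0.37, adjusted p = 0.131). *Btk* exceeded *Tec* by 0.57 ± 0.17 and *Syk* exceeded *Zap70*, its relative of T cells, by 0.37 ± 0.16. The main probe set of *Zap70*, 1 of 3, was at 8.63 in *Nestin-Pex5*-/- and 8.73 in wild type mice. The cells behind this signal were not examined. For *Fgr* against *Src* the difference was 0.25 ± 0.37 (adjusted p = 0.424), and for *Vav1* against *Vav2* it was -0.04 ± 0.20 (adjusted p = 0.8). With the probe sets of a gene averaged, the change of *Vav1* exceeded that of *Vav2* by 0.79 (adjusted p = 0.038). Of 16 measured paralogues of the set, *Inppl1* alone was called higher in the limma fit, and none was called lower (5 and 2 by the unadjusted p), with a median log2 fold change of 0.12.

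**Figure D3:**
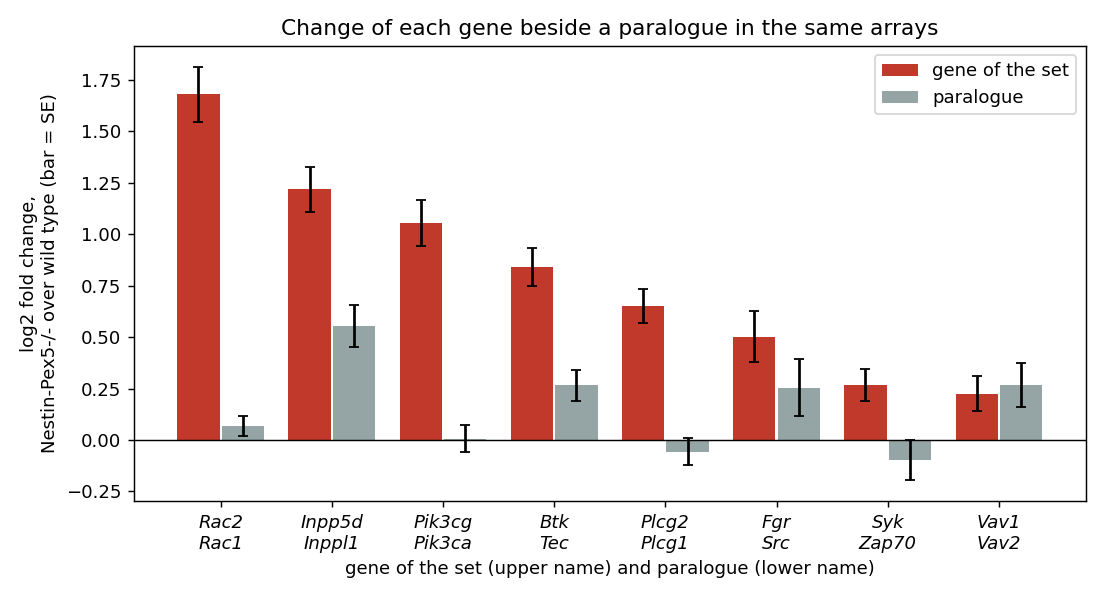
Change on the log2 scale in *Nestin-Pex5*-/- relative to wild type mice (vertical axis, bars are standard errors of the fit, n = 4 arrays per genotype) for each gene of the set (red, left) and its paralogue (grey, right). *Rac2* stands at 1.68 beside 0.07 for *Rac1*, while *Vav1* and *Vav2* stand at 0.23 and 0.27.

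Markers of microglia and macrophages moved in the same direction and mostly further. Of 16 measured markers 15 were called higher, with a mean log2 fold change of 1.53, and their mean level ran from 9.03 to 9.37 in *Nestin-Pex5*-/- arrays, against 7.59 to 7.83 in wild type arrays. Set against the mean of these markers within each array, 6 of the 8 genes changed by less: *Vav1* by -1.30, *Syk* by -1.26, *Fgr* by -1.03, *Plcg2* by -0.88, *Btk* by -0.69 and *Pik3cg* by -0.47 on the log2 scale (exact two-sided permutation p = 0.029 each, 0.038 after adjustment over the 8 genes). For *Inpp5d* the difference was -0.31 ± 0.19 (adjusted p = 0.098) and for *Rac2* 0.15 ± 0.15 (pooled SD, n = 4 each; adjusted p = 0.229), with overlapping arrays in both. For *Vav1* the probe set matters: its dimmer one rose by 1.60 on the log2 scale, and with probe sets averaged the difference was -0.54. All 8 genes were dimmer than the marker mean in both genotypes. The share of background in their signals is unknown, so the size of these differences is uncertain. The choice of markers matters as well. Against the homeostatic microglia genes among them none of the 8 genes passed. The differences were -0.89 for *Vav1*, -0.85 for *Syk*, -0.62 for *Fgr* and 0.56 for *Rac2* (adjusted p = 0.057 each from the exact test). *Inpp5d* was at 0.099. The exact p cannot fall below 0.029, so whether such differences pass depends on how many of the 8 genes reach that floor. Against the pan-myeloid genes, such as *Aif1*, *Itgam* and *Cd68*, all 8 changed by less, *Rac2* by -0.37 and *Inpp5d* by -0.84 (adjusted p = 0.029 each).

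Markers of other blood cells, which also use several of these enzymes, and of border-associated macrophages had 0 or 1 call per list, beside 3.98% of all genes called higher. Of 10 T cell markers none was called by limma or differed at an unadjusted p under 0.05, and their mean level was 5.65 to 5.85 in *Nestin-Pex5*-/- and 5.73 to 5.98 in wild type arrays. Of 10 markers of B cells and plasma cells 1 was called, *Cd22* (1.53-fold), with a mean level of 5.12 to 5.36 in *Nestin-Pex5*-/- and 5.08 to 5.29 in wild type arrays. By the unadjusted p 2 were higher, *Cd22* and *Cd79b* (log2 fold change 0.16, genotypes not overlapping), while *Cd79a*, *Ms4a1* and *Pax5*, which like *Cd79b* define B cells, had log2 fold changes of -0.0032, -0.037 and -0.019. Among 13 markers of neutrophils and monocytes 1 was called higher, the receptor gene *Csf3r* (3.38-fold), 3 were lower at an unadjusted p under 0.05, and the mean level was 5.35 to 5.45 in *Nestin-Pex5*-/- and 5.24 to 5.58 in wild type arrays. *S100a8* and *S100a9* were at 0.910-fold and 0.989-fold. Of 8 mast cell markers *Mcpt4* was called (1.43-fold, adjusted p = 0.0488 from limma). By the unadjusted p 3 were higher, the others being the protease genes *Cpa3* (1.67-fold, adjusted p = 0.199) and *Cma1* (1.55-fold, adjusted p = 0.0756, genotypes not overlapping), and the mean level was 5.58 to 6.07 in *Nestin-Pex5*-/- and 5.44 to 5.68 in wild type arrays. Of 8 markers of border-associated macrophages *Ms4a7* was called (3.10-fold), and *Mrc1* and *Lyve1* were at 1.11-fold and 0.986-fold. *Cd163* and *Clec10a* were at 1.21-fold and 1.20-fold without a call, and 2 of the 8 had a negative log2 fold change. The mean level of this list was 6.08 to 6.41 in *Nestin-Pex5*-/- and 5.78 to 6.14 in wild type arrays. The part of these cells in the changes of the 8 genes was not tested.

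Upstream of the kinases, the receptors and ITAM chains were split. Of 17 measured genes 9 were called higher and none lower by limma (10 higher and none lower at an unadjusted p under 0.05), with a median log2 fold change of 0.81. *Tyrobp* and *Fcer1g*, the ITAM chains on which Syk docks in myeloid cells, rose 7.35-fold and 4.84-fold, the lectin receptor *Clec7a* rose 15.4-fold and *Trem2*, a lipid receptor of microglia, rose 4.48-fold. The other 8 did not pass, among them *Cd300lb* (1.65-fold, adjusted p = 0.0505 from limma, genotypes not overlapping). Of the 17 genes 6 had a negative log2 fold change, among them *Trem1* (-0.058) and *Clec4e* (-0.11), receptors known from neutrophils and activated macrophages. *Clec4e* was dim, at 3.91 in *Nestin-Pex5*-/- and 4.02 in wild type mice, so its value says little about a change.

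Adaptors, which hold the enzymes together at the membrane, followed with 11 of 25 called higher and 1 lower (median log2 fold change 0.24). *Fyb*, an adaptor linked to integrins, rose 5.55-fold, *Pik3ap1*, which brings PI3-kinase to receptors, 4.55-fold, *Hcls1*, an actin-binding substrate of these kinases, 3.32-fold, and *Blnk*, which links Syk to Btk and PLCγ2, 3.10-fold. *Bank1*, an adaptor known from B cells, was lower at 0.763-fold (adjusted p = 0.0108 from limma). It was dim, at 5.03 in *Nestin-Pex5*-/- and 5.42 in wild type mice, and was not called at a threshold of 0.01. Of 18 other kinases, lipases and exchange factors 5 were called higher and none lower (7 and 1 by the unadjusted p; median 0.08). They include *Pik3r5*, a regulatory subunit that partners the product of *Pik3cg*, at 2.23-fold, and the Rac exchange factor *Dock2* at 2.04-fold, with *Dock8* at 1.57-fold and the kinase *Fes* at 1.54-fold.

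Genes of inhibition rose in part. Of 23 measured brakes on immunoreceptor signalling, a list that holds *Inpp5d*, 7 were called higher and none lower by limma (12 higher and none lower at an unadjusted p under 0.05), with a median log2 fold change of 0.16. *Ptprc* (CD45), a phosphatase that can both activate and restrain Src family kinases, rose 10.7-fold, the inhibitory lectin receptor *Cd72* 7.71-fold and *Rasal3*, an inhibitor of Ras, 2.30-fold.

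Downstream, all 4 measured oxidase genes were called higher, the membrane subunits *Cybb* (4.42-fold) and *Cyba* (3.30-fold) and the cytosolic subunits *Ncf4* (3.97-fold) and *Ncf1* (2.72-fold). Of 18 Rac effectors and actin regulators 8 were called higher and none lower (11 and none by the unadjusted p; median 0.41). *Nckap1l*, a subunit of the complex through which Rac drives actin branching in blood cells, rose 2.78-fold, and the GDP dissociation inhibitor *Arhgdib* rose 2.42-fold. In the branch of CARD9, NF-κB and NFAT 3 of 19 genes were called higher and none lower (9 and 2 by the unadjusted p; median 0.19): *Nfatc1* (log2 fold change 0.58), *Relb* at 1.44-fold and the calcium channel gene *Itpr2* at 1.43-fold. This count depended on the setting: 1 with the mean of the probe sets, 5 with trend and robust settings, 6 after scaling to the reference genes or without wild type replicate 4, and 7 higher and 2 lower with array weights. The background is 3.98% called higher and a median of -0.03, as above, and the difference between the lists was not tested. That share holds for the adjusted p only, and none is given for the list counts by the unadjusted p.

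**Figure D4:**
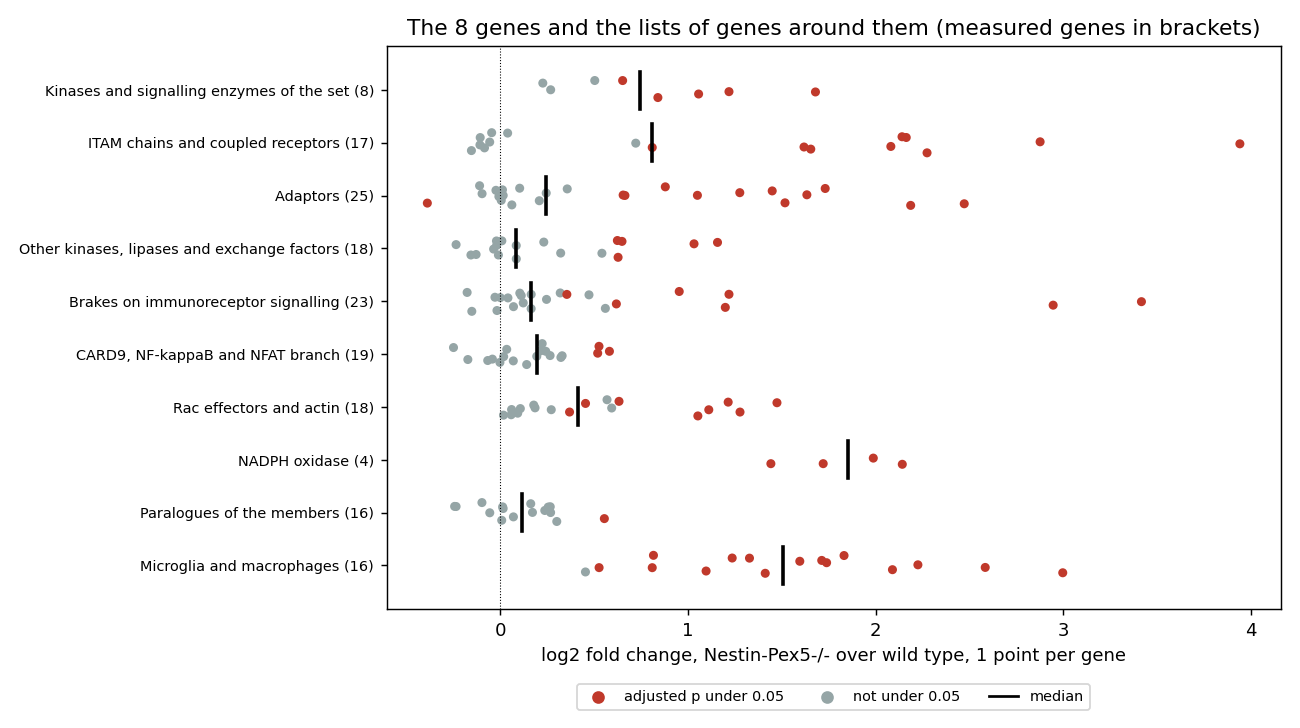
Change on the log2 scale in *Nestin-Pex5*-/- relative to wild type mice (horizontal axis) for the 8 genes and for the measured genes of each list around them, with the microglia and macrophage markers in the lowest row, 1 point per gene, red where called, with the median of each row as a black line (n = 4 arrays per genotype). The median is 1.85 for the NADPH oxidase, 0.75 for the 8 genes and 0.12 for their paralogues.

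The highest *Nestin-Pex5*-/- value was in replicate 8 for 4 of the 8 genes, in replicate 9 for 2 and in replicates 7 and 10 for 1 each. Among the wild type arrays replicate 4 was highest for 6 of the 8 genes and replicate 3 for 2. Averaged over the 8 genes, replicate 8 lay 0.084 above and replicate 7 fell by 0.054 against the mean of their group, while wild type replicate 4 lay 0.19 above the wild type mean. The mean of the microglia and macrophage markers was likewise highest in *Nestin-Pex5*-/- replicate 8 (9.37) and wild type replicate 4 (7.83).

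The genes outside the set whose profile over the 8 arrays was nearest to the mean profile of the 8 genes were *Hexa*, *Cmtm3*, *Lgmn*, *Npc2* and *Tnfrsf1a*, with a root mean square difference of 0.053 to 0.079 on the log2 scale after each gene's mean was removed. Their folds ran from 1.69 to 1.91. The nearest single gene to *Rac2* was *Lcp1* (0.10; 3.15-fold), to *Inpp5d* *Rassf4* (0.10; 2.29-fold), to *Pik3cg* *Trim30a* (0.084; 2.23-fold) and to *Btk* *P2rx7* (0.066; 1.75-fold). *Cd22* was nearest to *Plcg2* (0.075), *Sting1* to *Fgr* (0.068), *Asap3* to *Vav1* (0.047) and *Il6* to *Syk* (0.041). Of these *Cd22* (1.53-fold) and *Sting1* (1.42-fold) were called higher by limma. *Asap3* (1.14-fold, adjusted p = 0.276 from limma) and *Il6* (1.15-fold, adjusted p = 0.152) were not. This measure follows the size of the genotype difference above all, and with 8 arrays it describes likeness only.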

How the data were processed

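Hypothalamus RNA of 4 *Nestin-Pex5*-/- and 4 wild type mice was measured on Affymetrix arrays. The authors deposited RMA log2 values (version, probe set definition and filters are not given in the sources used here). All 8 columns were used. Gene names came from the platform annotation, with symbols updated by gene identifier to GRCm38.p6 (34754 of 34958 probe sets with 1 gene). Probe sets with several genes (932) or none (9211) were left out. Testing used limma 3.58.1 under R 4.3.3 (linear model and eBayes, genotype as the only term, two-sided), without a filter on level or further normalization. The exact permutation test ran over the 70 assignments of the arrays. The fit was tested on simulated data. The number of arrays limits the precision, and the p-values set the difference between genotypes against the spread between mice. Named genes are the genes of the set, their paralogues, up to 4 called genes per direction with the largest change from each list, and the nearest profiles, except for some that are not reported here. Markers named singly were chosen after their values were seen. The genes and lists were chosen with earlier results of these data known. Alternatives were another choice among or mean of probe sets, a level filter, scaling to *Actb* or to 8 measured reference genes, renewed quantile normalization, trend and robust settings, array weights, a threshold of 0.01, other marker subsets and leaving out each array. Plots used Python 3.11.15 and matplotlib 3.10.9.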

Additional observations from a re-analysis of the deposited data

Results flagged for a closer look

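Of 48 groups of 4 arrays examined, covering the 16 probe sets and the 8 paralogues in each genotype, 2 held an array far from the other 3 by Dixon's criterion, where chance gives about 1 in 20. *Rac2* was at 8.73 in *Nestin-Pex5*-/- replicate 8, against 8.27 to 8.33 in the other *Nestin-Pex5*-/- arrays. *Rac1* was at 13.01 in wild type replicate 4, against 12.95 in each of the other wild type arrays.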

How the results depend on the processing

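No paired analysis was possible because the genotypes share no replicate number. The 5 called genes of the set stayed called in every setting that could be fitted for them, and no gene of the set changed direction. Leaving out genes below the median level removed all 8, so this setting gave no value for them, and it left 416 genes higher in place of 724. *Fgr*, *Syk* and *Vav1* passed in some settings: with the mean of the probe sets at 0.54, 0.29 and 0.91 (log2 fold change), with array weights at 0.66, 0.33 and 0.32, and with the probe set of smallest p, a choice that favours calls, at 0.50, 0.44 and 1.60. *Fgr* also passed after scaling to the reference genes (0.55) and with trend and robust settings (0.50), and ran from 0.43 to 0.60 without 1 array. Over all settings its adjusted p ran from 0.0026 to 0.143, that of *Syk* from 0.011 to 0.231 and that of *Vav1* from 4.5e-06 to 0.41. With the mean of the probe sets *Vav1* minus *Vav2* was 0.79 in place of -0.04 and *Inpp5d* minus *Inppl1* 0.37. Against the microglia and macrophage markers, this setting gave -0.53 for *Inpp5d* and -0.61 for *Rac2*, whose second probe set is flat; both passed (adjusted p = 0.0286 each) and the sign of *Rac2* turned. Without _s_at and _x_at probe sets *Pik3cg* was at -0.28 against these markers and no longer passed (adjusted p = 0.098). Against the homeostatic genes alone the differences were -0.85 for *Syk*, -0.62 for *Fgr*, -0.28 for *Btk*, -0.47 for *Plcg2*, -0.063 for *Pik3cg*, -0.89 for *Vav1* and 0.099 for *Inpp5d*, and against the pan-myeloid genes -0.84 for *Inpp5d* and -0.37 for *Rac2*. Over all genes, array weights called 1351 higher and 699 lower, a threshold of 0.01 called 467 and 20, scaling to *Actb* 540 and 1086, and scaling to the reference genes 928 and 78. Scaling to *Actb* moved the median log2 fold change of all genes to -0.16. Lower genes numbered 46 to 331 without 1 array, against 144 with all arrays; the 331 came without wild type replicate 4, and 46 to 68 came without *Nestin-Pex5*-/- replicate 8, 9 or 10 or wild type replicate 1 or 2. Of the counts over the pathway lists under the alternatives, 253 stayed within 1.5 times and 19 did not. The *Lyn* and *Fyn* pair was not run. Apart from the changes of probe sets and markers just named, the cause of these shifts was not tested.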
